A study of Mus musculus with 8 samples.

Results

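Midkine and pleiotrophin are a pair of small secreted growth factors that bind heparin, and their genes Mdk and Ptn were followed here together with the genes of their binding partners in the injured mouse cortex. The 9 genes are the ligand genes Mdk and Ptn, the receptor-type tyrosine phosphatase gene Ptprz1, the nucleolin gene Ncl, the receptor tyrosine kinase gene Alk and the syndecan genes Sdc1, Sdc2, Sdc3 and Sdc4. All 9 were found by symbol among the 21848 genes of each count matrix. The set was chosen by a value measured in these libraries, the lower Mdk level in fibroblasts of every ancrod mouse, so the ancrod comparison in fibroblasts is given as a description without a test.

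Midkine and pleiotrophin signal through receptors that often carry sulfated sugar chains. Ptprz1 is a phosphatase of glia whose chondroitin sulfate chains bind both ligands. Syndecans are membrane proteins whose heparan sulfate chains hold growth factors and matrix proteins at the cell surface. Nucleolin is mainly a nucleolar protein of ribosome production that has also been described at the cell surface, and Alk is best known from the developing nervous system.

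In GRCm39 the ligand genes span chr2:91760143-91762846 (Mdk) and chr6:36680960-36796991 (Ptn). The receptor genes span chr6:22875358-23054236 (Ptprz1), chr1:86272441-86287208 (Ncl) and chr17:72174200-72911622 (Alk). The syndecan genes span chr12:8820854-8843725 (Sdc1), chr15:32920699-33035213 (Sdc2), chr4:130519826-130556217 (Sdc3) and chr2:164266025-164285807 (Sdc4).

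Single-cell RNA sequencing was done on the injured right sensorimotor cortex 6 days after photothrombotic stroke (PT), a lesion made by light and the dye Rose Bengal over a field of 4 mm. Ancrod, an enzyme that depletes fibrinogen, was given to 4 mice by subcutaneous pump at 2.4 U (2.0 mg per kg) per day, and 4 control mice received saline by the same kind of pump, placed 2 days before PT. The labels call all 8 mice adult Bl/J6 females, whereas the study's methods describe another substrain and animals of either sex, and this was not settled. All mice were injured, the meninges had been removed, myelin and red blood cells were depleted, and no cell type was enriched. Replicates 1 to 3 of each group formed batch 1 of injury and sequencing and replicate 4 of each group formed batch 2.

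Each library came from 1 mouse. The libraries held 97861434 to 122758649 UMIs (unique molecules counted) in the control mice and 126682918 to 142139441 in the ancrod mice, so the groups did not overlap in depth. Of 46216 droplets with at least 2000 UMIs and under 20% mitochondrial UMIs, 2144 were removed as likely doublets, leaving 44072 cells. No pair of libraries shared more than 15 cell barcodes. Clusters were named from marker genes, which gave 17 classes, and each class name below means cells like that type. The class called macrophages derived from monocytes was named from monocyte genes, such as Ccr2 and Ly6c2, together with macrophage genes. It holds monocytes and macrophages without a split. A level is the UMIs of a gene relative to all UMIs of a class in 1 mouse, in counts-per-million (CPM), with the SD over mice. Levels are set side by side for 1 gene at a time, and fewer cells of a state and less RNA per cell cannot be told apart in such sums.

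Mdk was highest in fibroblasts, at 794 ± 126 CPM (SD, n = 8 mice). The class was named from collagen genes with Dcn and Lum, and with 2179 of 44072 cells it held 77.9% ± 12.8 of the Mdk UMIs (SD, n = 8). Apart from cells named erythroid, described below, astrocytes, oligodendrocyte precursors and pericytes followed at lower levels.

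Reactive astrocytes had 254 ± 34.5 CPM of Mdk (SD, n = 8). A class of low-UMI astrocytes led by Mt3, Aldoc and Gfap, called other astrocytes here, had 237 ± 23.9 CPM (SD, n = 8), and the ranges of these classes overlapped. Oligodendrocyte precursors had 178 ± 27.7 CPM (SD, n = 7), homeostatic astrocytes 126 ± 20.5 CPM and pericytes, the mural cells of capillaries, 55.1 ± 9.70 CPM (SD, n = 8 each). Ependymal cells, of which 2 mice had at least 10, had 32.1 and 80.2 CPM.

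Mdk was near absent elsewhere. Neurons, smooth muscle, endothelial cells and the immune classes had means of 3.41 to 6.95 CPM. The free RNA of the libraries, read from droplets with at most 100 UMIs, held 95.1 ± 39.0 CPM of Mdk (SD, n = 8), and between 1.80% and 3.77% of endothelial UMIs were estimated to be free RNA.

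Cells named erythroid had 54.4 to 1077 CPM of Mdk in the 6 mice with at least 10 such cells. The same sums held 680 to 14944 CPM of the 11 fibroblast markers, and ancrod mice 3 and 4 were highest in both. The part of fibroblast RNA in this class was not tested, and it was too rare for the comparison of the groups.

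**Figure D1:**
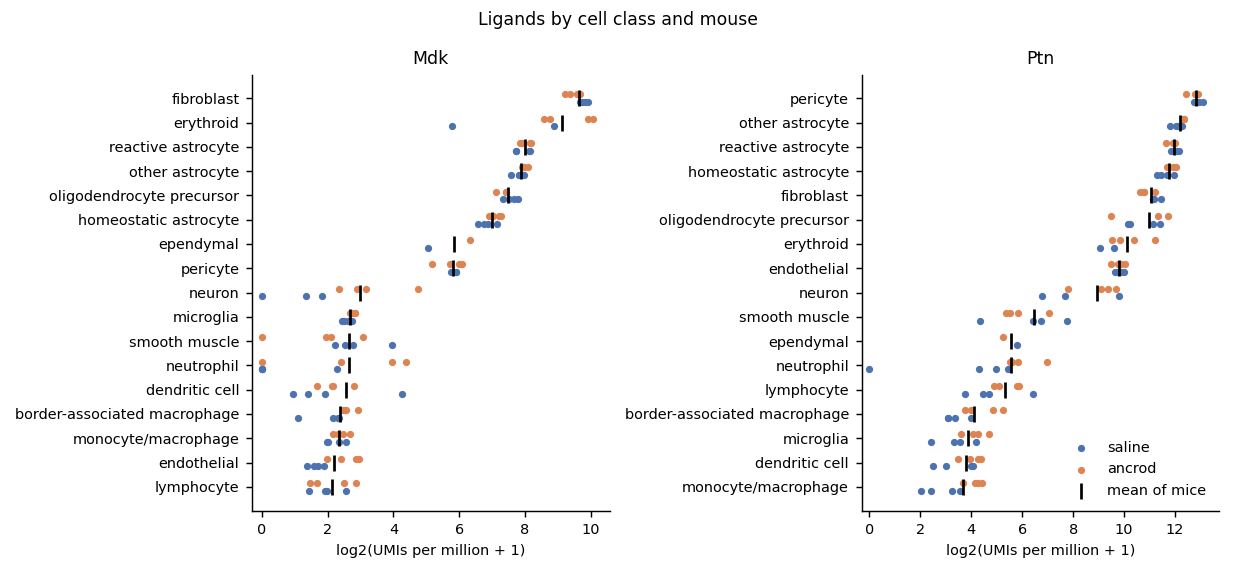
Levels of the ligand genes Mdk and Ptn on a log2(CPM + 1) axis in 17 cell classes ordered by mean, with 1 point per mouse (blue saline, orange ancrod) and a bar at the log2 of the mean over mice. Mdk is highest in fibroblasts (mean 794 CPM) and Ptn in pericytes (mean 7298 CPM).

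Ptn had more sources than Mdk, and pericytes stood first at 7298 ± 914 CPM (SD, n = 8). The pericyte values were 7936, 7394, 8693 and 6837 CPM in control mice 1 to 4 and 5524, 7359, 7569 and 7072 CPM in ancrod mice 1 to 4. Every pericyte value was above every value of the next class, and the control and ancrod mice overlapped.

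Astrocytes came next for Ptn, with 4735 ± 586 CPM in other astrocytes, 3999 ± 411 CPM in reactive and 3430 ± 593 CPM in homeostatic astrocytes (SD, n = 8 each), each overlapping its neighbour. Fibroblasts had 2124 ± 398 CPM (SD, n = 8), oligodendrocyte precursors 1998 ± 987 CPM (SD, n = 7) and endothelial cells 898 ± 113 CPM (SD, n = 8). Macrophages, microglia and dendritic cells had means of 11.7 to 16.4 CPM, against 804 ± 194 CPM in the free RNA (SD, n = 8). By contribution, fibroblasts held 28.5% ± 14.8 of the Ptn UMIs, homeostatic astrocytes 16.4% ± 8.58, endothelial cells 15.1% ± 7.64 and pericytes 9.23% ± 3.53 (SD, n = 8 each).

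Most fibroblasts carried both ligand transcripts. After each cell was thinned to 2000 UMIs, 66.9% ± 7.90 of fibroblasts (SD, n = 8) had a UMI of both genes, 8.08% of Mdk alone and 19.9% of Ptn alone. Both were found in 35.2% ± 2.82 of other astrocytes, 33.3% ± 8.55 of reactive astrocytes and 7.99% ± 3.47 of pericytes (SD, n = 8 each). For Mdk with or without Ptn, 75.0% ± 6.86 of fibroblasts had a UMI after thinning and 98.7% ± 0.977 before it, at a median of 43441 UMIs per cell. In endothelial cells, which serve as a class without the gene, these shares were 0.628% ± 0.436 and 4.83% ± 2.65 at a median of 10071.5 UMIs per cell (SD, n = 8).

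Among the receptors, Ptprz1 was a gene of astrocytes and oligodendrocyte precursors. Homeostatic astrocytes had 2311 ± 148 CPM (SD, n = 8) and oligodendrocyte precursors 2220 ± 689 CPM (SD, n = 7), and the classes overlapped. Other astrocytes had 1531 ± 276 CPM and reactive astrocytes 1505 ± 192 CPM (SD, n = 8 each), again with overlap.

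Ependymal cells had 305 and 489.6 CPM of Ptprz1. In the remaining classes the means ran from 3.08 CPM in fibroblasts to 17.3 CPM in neutrophils, against 205 ± 91.2 CPM in the free RNA (SD, n = 8). Homeostatic astrocytes held 56.3% ± 10.7 and reactive astrocytes 22.9% ± 6.37 of Ptprz1 UMIs (SD, n = 8 each).

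Alk was scarce everywhere. Its highest level was 78.3 ± 17.8 CPM in oligodendrocyte precursors (SD, n = 7), where 14.003% ± 9.40 of cells had a UMI after thinning. The values were 90.6, 48.3, 96.3 and 61.0 CPM in control mice 1 to 4 and 75.7, 84.5 and 92.0 CPM in ancrod mice 1, 3 and 4, resting on 30 to 63 UMIs each. The groups overlapped, and ancrod mouse 2 had only 9 such cells. Neurons had 19.5 ± 28.0 CPM (SD, n = 7), where ancrod mouse 1 had 79.9 CPM, on 89 UMIs in 44 cells, and the 6 other mice at most 22.8 CPM. Homeostatic astrocytes had 19.2 ± 9.19 CPM and fibroblasts 6.64 ± 2.18 CPM (SD, n = 8 each).

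Ncl was present in every class. Lymphocytes were highest at 550 ± 62.5 CPM (SD, n = 8), above dendritic cells at 365 ± 37.3 CPM in 8 of 8 mice and without overlap. Below dendritic cells each class overlapped its neighbour in the order of means, down to homeostatic astrocytes at 125 ± 15.8 CPM (SD, n = 8).

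The syndecans differed in their leading classes, except that pericytes led both Sdc2 and Sdc3. Sdc1, known from epithelia and plasma cells, was highest in fibroblasts at 41.9 ± 9.15 CPM, and they held 70.9% ± 21.6 of its UMIs (SD, n = 8). Macrophages derived from monocytes had 5.30 ± 2.47 CPM and microglia 0.115 ± 0.0519 CPM (SD, n = 8 each).

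Sdc2, known from mesenchymal cells, was highest in pericytes at 686 ± 79.8 CPM and smooth muscle at 469 ± 104 CPM (SD, n = 8 each), which overlapped, with pericytes higher in 7 of 8 mice. Fibroblasts had 220.2 ± 23.3 CPM, without overlap with smooth muscle, and the astrocyte classes had means of 163 to 208 CPM. Endothelial cells had 3.76 ± 1.73 CPM (SD, n = 8).

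Sdc3, the syndecan best known from neural tissue, was also highest in pericytes, at 317 ± 45.9 CPM (SD, n = 8). Oligodendrocyte precursors had 188 ± 83.5 CPM (SD, n = 7), border-associated macrophages 131 ± 20.9 CPM and microglia 79.5 ± 8.34 CPM (SD, n = 8 each). Fibroblasts were low, at 26.2 ± 6.61 CPM (SD, n = 8).

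Sdc4, a syndecan of focal adhesions, was highest in reactive astrocytes at 752 ± 83.3 CPM (SD, n = 8). Its values there were 773, 803, 889 and 663 CPM in control mice 1 to 4 and 804, 759, 681 and 647 CPM in ancrod mice 1 to 4, with overlap of the groups. Homeostatic astrocytes had 374 ± 69.4 CPM (SD, n = 8), and their highest mouse, at 464 CPM, was below the lowest reactive value. Smooth muscle, the next class by mean, had 543 ± 130 CPM and overlapped reactive astrocytes, with 813 CPM in ancrod mouse 3, and pericytes had 29.7 ± 15.6 CPM (SD, n = 8 each), so these mural classes shared Sdc2 but not Sdc4. Microglia, 18640 of 44072 cells, held 49.3% ± 14.5 of the Sdc4 UMIs at 244 ± 56.2 CPM (SD, n = 8).

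**Figure D2:**
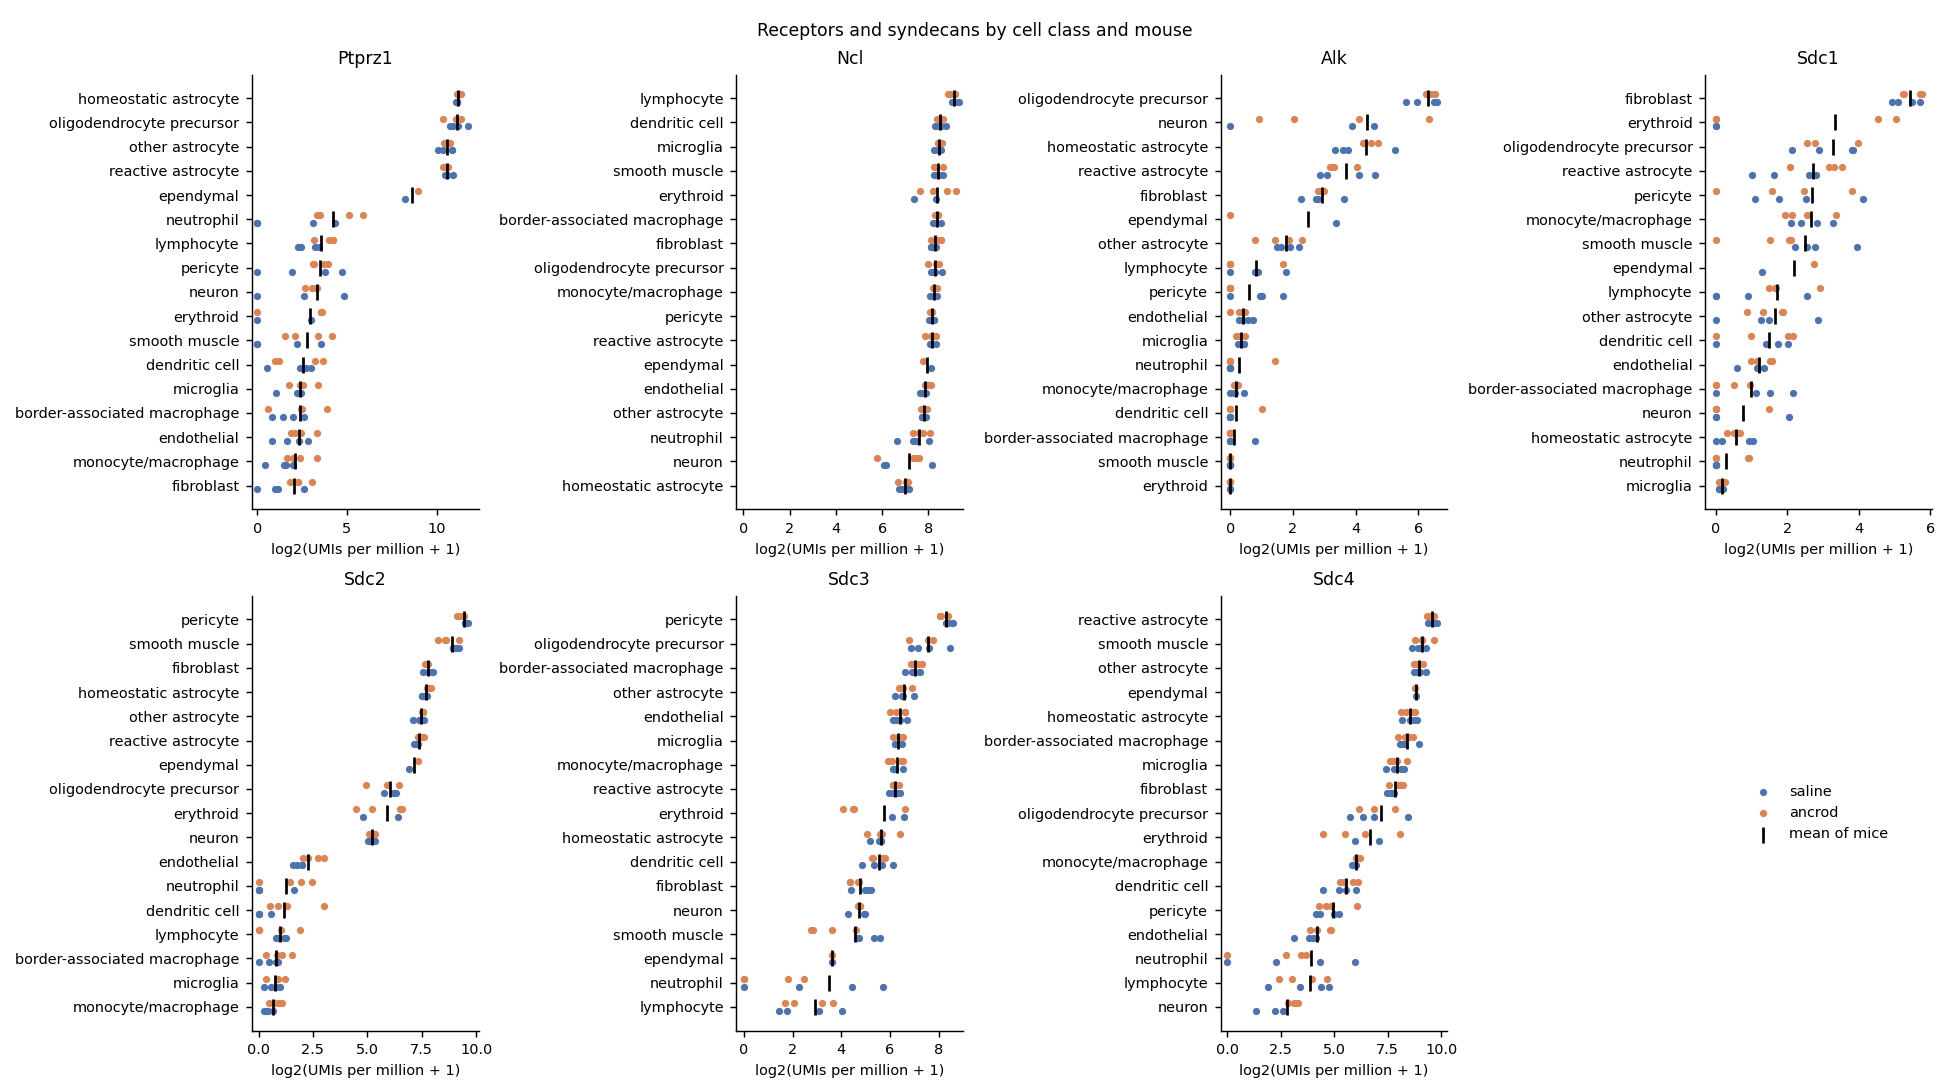
Levels of Ptprz1, Ncl, Alk and the syndecan genes on a log2(CPM + 1) axis by cell class ordered by mean, with 1 point per mouse (blue saline, orange ancrod) and a bar at the log2 of the mean over mice. The means of Ptprz1 fall from 1505 CPM in reactive astrocytes to 17.3 CPM or less outside glia and ependymal cells, whereas the lowest class mean of Ncl is 125 CPM.

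Oligodendrocyte precursors had the most members at a mean of at least 50 CPM, 8 of 9, with Sdc1 as the exception. Lymphocytes, neutrophils and dendritic cells had 1, which was Ncl. Over the 17 class means on the log2(CPM + 1) scale, Pearson's r was 0.76 between Mdk and Ptn, 0.76 between Ptn and Sdc2 and 0.71 between Ptprz1 and Alk. These are descriptions over classes that share libraries and differ in depth.

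Among 13923 genes with at least 10 CPM in some class, those most like Mdk over the 17 classes were Fbln1, Cpxm1, Hebp2, Igfbp5 and Gas1 (r of 0.92 to 0.94). For Ptn they were Mageh1, Mtmr11, Pik3r3, Slc25a29 and Hykk (r of 0.89 to 0.91). For Ptprz1 they were Gpr37l1, Sox2, Hepacam, Nr2e1 and Pou3f4 (r of 0.98 to 0.99), and for Alk Bmper, Pdzrn4, Plxna3 and Nlgn1 (r of 0.94 to 0.96). Ncl went with Npm3, Eif3m, Myc, Npm1 and Rpl5 (r of 0.90 to 0.94), of which Npm1 encodes another abundant nucleolar protein.

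Sdc2 went with Gstt1, Arhgef17, Nr2f1, Fat1 and Evc (r of 0.96 to 0.98). Sdc3 went with Gatm, an enzyme of creatine synthesis, at an r of 0.94, and the next genes, Gatc, Chst7, Tnfrsf21 and Gipc1, were at 0.74 to 0.77. Sdc4 went with Idh2, Mt1, Pdlim4, Acaa1a and Nacc2 (r of 0.84 to 0.92) and Sdc1 with Fam136a, Pdap1, Zfp469, Rnf26 and Arl1 (r of 0.85 to 0.87).

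The comparison of ancrod with saline asked how depletion of fibrinogen went with the levels of these genes. In fibroblasts the Mdk values were 969, 848, 810.86 and 913 CPM in control mice 1 to 4 and 758, 655, 810.82 and 589 CPM in ancrod mice 1 to 4. Every ancrod value lay below every control value, which is how the genes were chosen, but the nearest mice were 0.036 CPM apart. Control mouse 3, at that edge, had the fewest fibroblasts, 42, against up to 608 in another mouse.

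The means of Mdk were 885 ± 70.04 CPM in control and 703 ± 100.03 CPM in ancrod mice (SD, n = 4 each), or 20.6% less, with a log2 fold change of -0.33 ± 0.10 (SE). Within batch 1 the log2 fold change was -0.26 ± 0.11 (SE), and batch 2 held 1 mouse per group. With every cell thinned to 2000 UMIs it was -0.33 ± 0.12 (SE).

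Over all cells of a library the means of Mdk stood in the other order. They were 126, 77.7, 25.6 and 120.2 CPM in control mice 1 to 4 and 129.7, 85.0, 212 and 153 CPM in ancrod mice 1 to 4. The mean over all cells was 87.3 ± 46.4 CPM in control and 145 ± 52.9 CPM in ancrod mice (SD, n = 4 each), with overlap, and this difference was not tested. The libraries held 651 fibroblasts in control and 1528 in ancrod mice, and the lower Mdk level given above is a level within fibroblasts. These are counts of recovered cells, not of cells in the tissue. The study calls easier dissociation after reduced fibrosis a likely reason for higher proportions of such cells in ancrod mice. By imaging it reports fewer activated fibroblasts in their lesions.

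The share of fibroblasts with an Mdk UMI after thinning was 76.2% to 83.2% in the control and 64.5% to 74.3% in the ancrod mice. This share is another measure of the value by which the genes were chosen. Of all genes tested in fibroblasts, 7.53% had groups that did not overlap in CPM, which is not a background for such shares. In edgeR's quasi-likelihood test 0.00782% of them passed an adjusted p of 0.05. The fibroblast sums held 27610 to 38136 CPM of the 11 fibroblast markers in control and 23795 to 29556 CPM in ancrod mice. Of the 13 markers of macrophages derived from monocytes they held 348 to 499 CPM in control and 218 to 381 CPM in ancrod mice, and of the 10 astrocyte markers 1137 to 1781 CPM and 1118 to 1793 CPM. None of the astrocyte markers was at 0 in either group. The part of these markers in the Mdk difference was not tested.

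Ptn in fibroblasts was 2763, 2293, 2243 and 2246 CPM in control mice 1 to 4 and 1594, 1738, 2375 and 1737 CPM in ancrod mice 1 to 4. The ancrod mice 1, 2 and 4 lay below all control mice and ancrod mouse 3 lay among them, an order that did not hold for ancrod mouse 4 with equal cluster mixes, as given below. Ptn thus had a log2 fold change of -0.35 ± 0.13 (SE, 4 mice per group).

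The syndecans of fibroblasts did not share a sign. Sdc3 had a log2 fold change of -0.47 ± 0.15 and Sdc2 of -0.10 ± 0.11, whereas Sdc4 had 0.32 ± 0.13 and Sdc1 0.16 ± 0.20 (SE, 4 mice per group). With 1 mouse left out Sdc1 ran from 0.03 without ancrod mouse 4 to 0.32 without control mouse 2, and Sdc2 from -0.20 without control mouse 4 to -0.04 without control mouse 2. In batch 1 alone Sdc1 was at -0.07, and after thinning Sdc3 was at -0.77. Sdc4 was 200.3, 200.3, 222 and 176 CPM in control mice 1 to 4 and 249, 296, 264 and 188 CPM in ancrod mice 1 to 4, so that ancrod mouse 4 fell among the controls. Ncl was 289 ± 19.2 CPM in control and 342 ± 46.2 CPM in ancrod mice (SD, n = 4 each), a log2 fold change of 0.25 ± 0.12 (SE). Ptprz1 and Alk, with means under 7 CPM in both groups, had log2 fold changes of 1.00 ± 0.62 and -0.08 ± 0.26 (SE). Without control mouse 1 these were 2.12 and 0.29, Alk was at -0.23 in batch 1 alone, and Ptprz1 was at 0.14 without doublet removal. Mdk was the 1 member of 9 whose groups did not overlap in fibroblasts, as for 7.53% of all genes tested there, and its level there is the value by which the genes were chosen.

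**Figure D3:**
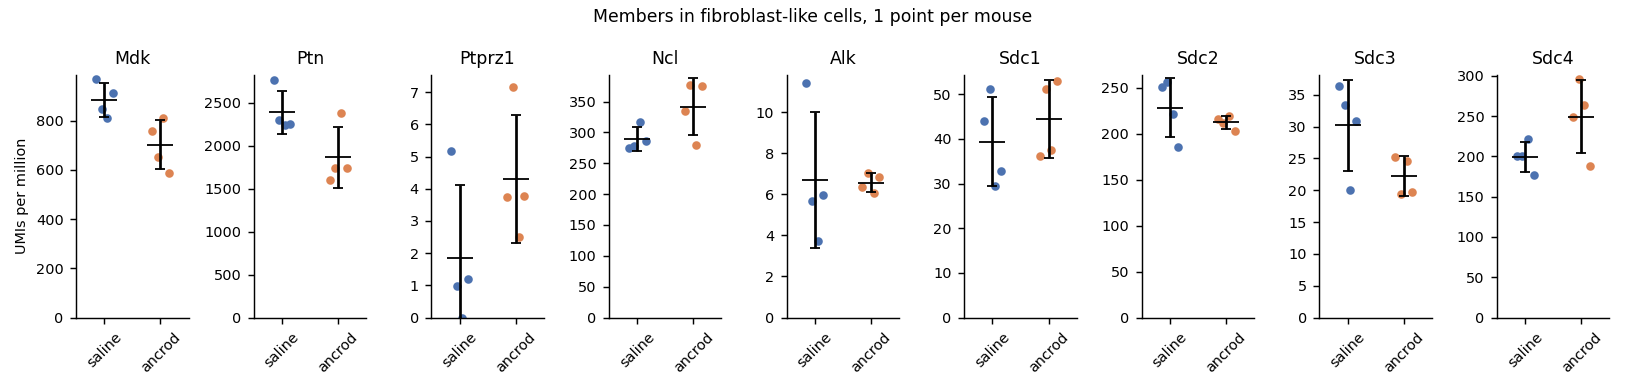
Levels in CPM of the 9 genes in fibroblasts, with 1 point per mouse and the mean ± SD over the 4 mice of each group, on axes that start at 0. The Mdk mean is 885 CPM in control and 703 CPM in ancrod mice, and the nearest mice of the groups almost touch.

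Fibroblasts fell into 4 clusters. The first was led by Lama1 and Inmt (843 cells), the second by genes that included Col8a1, Fmod and Col1a1 of the matrix (689 cells), the third by Penk, Ccn3 and Slc47a1 (360 cells), and the fourth by Crabp1 with cell division genes such as Cdc20 and Ube2c (287 cells). Mdk had means of 712 to 856 CPM over these clusters. Ptn had 3319 ± 558 CPM in the Lama1 cluster (SD, n = 8) and means of 1395 to 1889 CPM in the others.

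The Mdk difference between the groups varied among the clusters. In the Crabp1 cluster Mdk was 1014, 832 and 1021 CPM in control mice 1, 2 and 4 and 639, 407, 651 and 417 CPM in ancrod mice 1 to 4. Control mouse 3 had 4 such cells, with 134 Mdk UMIs, and was left out here for having fewer than 10. On those 4 cells its level lay within the range of the ancrod mice, so the groups were apart only without it. The Col8a1 cluster had 949 ± 125 CPM in control and 701 ± 117 CPM in ancrod mice (SD, n = 4 each), with overlap.

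In the Lama1 cluster Mdk was 807 to 949 CPM in the control and 785 to 851 CPM in the ancrod mice, and the groups overlapped. In the Penk cluster it was 852 ± 298 CPM in control (SD, n = 3) and 783 ± 65.1 CPM in ancrod mice (SD, n = 4), also with overlap. A difference between clusters was not tested.

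The groups also differed in their mix of clusters by value. The Crabp1 cluster was 7.27% to 9.78% of fibroblasts in control and 9.54% to 23.8% in ancrod mice, and the Lama1 cluster 45.2% ± 11.2 and 33.8% ± 9.71 (SD, n = 4 each). With the same mix given to every mouse, Mdk was 909 ± 79.3 CPM in control and 738 ± 61.0 CPM in ancrod mice (SD, n = 4 each). The groups then met, with the lowest control value at 810.42 CPM and the highest ancrod value at 810.58 CPM. Clusters of fewer than 10 cells were kept in these values, among them 4 Crabp1 cells of control mouse 3, the lowest control mouse. The meeting of the groups rests in part on those 4 cells. Ptn at the same mix was 2664, 2478, 2482 and 2205 CPM in control mice 1 to 4 and 1643, 2028, 2412 and 2425 CPM in ancrod mice 1 to 4, so ancrod mice 3 and 4 lay among the controls. The means at the same mix were 2457 ± 189 and 2127 ± 372 CPM for Ptn and 291 ± 21.4 and 317 ± 30.2 CPM for Ncl in control and ancrod mice (SD, n = 4 each).

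**Figure D4:**
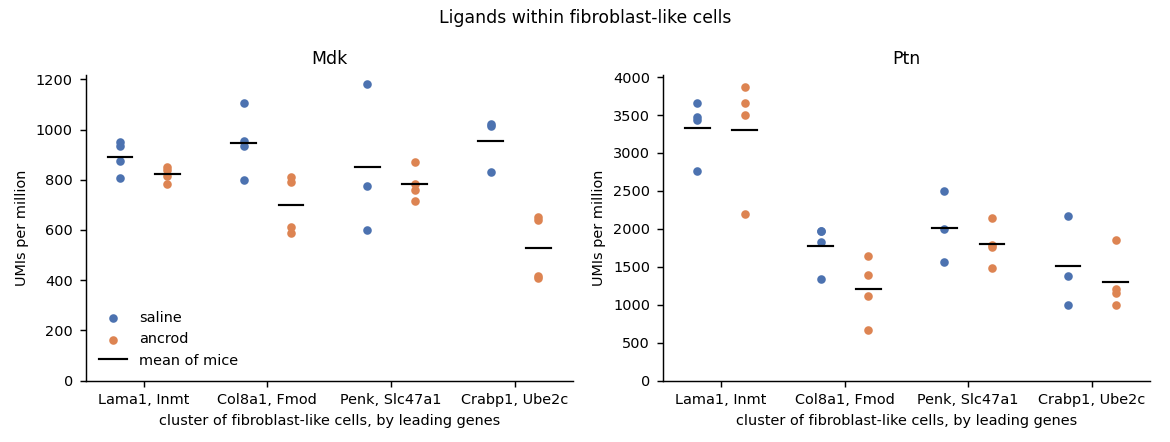
Levels in CPM of Mdk and Ptn in the 4 clusters of fibroblasts, with 1 point per mouse with at least 10 cells of the cluster (blue saline, orange ancrod). Mdk of the Crabp1 cluster is at 832 to 1021 CPM in the 3 control mice shown and 407 to 651 CPM in ancrod mice. Control mouse 3, with 4 such cells and a level within the ancrod range, is not shown there. Ptn is highest in the Lama1 cluster.

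A finer division into 12 subclusters gave pooled levels of 160 to 1023 CPM for Mdk and 607 to 11731 CPM for Ptn. The highest Ptn was in 32 cells led by Col13a1, Ntm and Col15a1, followed by 6412 CPM in 230 cells led by Clec3b and Wnt4. The lowest Mdk was in 36 cells led by Matn4 and the cartilage proteoglycan gene Acan, and all 36 came from ancrod mouse 4.

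That subcluster and 3 more, led by genes of macrophages, endothelial cells or astrocytes, held 22 cells of the control and 80 cells of the ancrod mice. Without these 4 subclusters, an alternative chosen after the data had been seen, Mdk was 893 ± 72.4 CPM in control and 723 ± 85.5 CPM in ancrod mice (SD, n = 4 each). Ancrod mouse 3 was then at 818 CPM and control mouse 3 at 811 CPM, so the groups overlapped. Over the 7 subclusters of at least 50 cells, the genes most like Mdk were Amdhd2, Capn1, Pcdhb17, Sirt5 and Zfp426 (r of 0.94 to 0.98). These are the highest of 10438 genes over only 7 points, where such values can arise by chance.

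Dividing fibroblasts, taken as cells with a UMI of at least 2 of 5 division genes after thinning, were 6.85% ± 2.12 of fibroblasts in control and 8.59% ± 3.98 in ancrod mice (SD, n = 4 each). In the 5 mice with at least 10 such cells, Ncl was higher in dividing than in other fibroblasts in 5 of 5, at 416 ± 73.4 against 295 ± 31.6 CPM (SD, n = 5). Ptn was lower in dividing cells in 5 of 5, at 1588 ± 513 against 2220 ± 449 CPM (SD, n = 5).

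Mdk in dividing fibroblasts was 960 and 991 CPM in 2 control mice and 464 to 632 CPM in 3 ancrod mice. In the fibroblasts that were not dividing it was 832 to 970 CPM in the control and 620 to 825 CPM in the ancrod mice.

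Outside fibroblasts no member passed an adjusted p of 0.05 between the groups. Of 86 tests of a member in 1 of 14 classes with edgeR's quasi-likelihood test, adjusted over all genes of the class, 0 passed, 12 had an unadjusted p under 0.05 and the lowest adjusted p was 0.51. Over all genes of these classes, 5.06% of the tests had an unadjusted p under 0.05, from 2.00% in neurons to 9.52% in pericytes, in edgeR's quasi-likelihood test. DESeq2 also called 0 of the member tests. Of all genes, 0% were called in 12 of these classes, 0.00880% in homeostatic astrocytes (Plat) and 0.00888% in reactive astrocytes (Vcam1), both named after their values were seen.

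Sdc2 had opposite signs in pericytes and homeostatic astrocytes, and neither passed. In pericytes it was 790, 756, 716 and 715 CPM in control mice 1 to 4 and 556, 694, 585 and 678 CPM in ancrod mice 1 to 4, with no overlap, as for 5.49% of the genes tested there. Its log2 fold change in pericytes was -0.20 ± 0.11 (SE), with an adjusted p of 0.63 in edgeR's quasi-likelihood test. In homeostatic astrocytes Sdc2 was 181, 182, 190.4 and 210.6 CPM in control mice 1 to 4 and 220.0, 238, 228 and 211.0 CPM in ancrod mice 1 to 4, again without overlap, as for 2.98% of genes there. Its log2 fold change in these astrocytes was 0.25 ± 0.10 (SE), with an adjusted p of 0.96 in edgeR's quasi-likelihood test, and after thinning it was 0.38.

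Sdc3 in pericytes was 349 ± 31.2 CPM in control and 285 ± 34.1 CPM in ancrod mice (SD, n = 4 each), with a log2 fold change of -0.25 ± 0.11 (SE) and an adjusted p of 0.51 in edgeR's quasi-likelihood test. Ptn in other astrocytes was 4484, 3615, 5009.9 and 4190 CPM in control mice 1 to 4 and 5227, 5014, 5088 and 5254 CPM in ancrod mice 1 to 4. These groups did not overlap, as for 2.93% of genes there, and the log2 fold change was 0.24 ± 0.13 (SE). Sdc1 in reactive astrocytes had a log2 fold change of 1.02 ± 0.44 (SE) on 2 to 33 UMIs per mouse.

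The other named differences stood in classes where the gene was near absent. Mdk in endothelial cells was 2.25, 2.00, 1.60 and 2.67 CPM in control mice 1 to 4 and 6.81, 2.96, 4.28 and 6.22 CPM in ancrod mice 1 to 4, without overlap, as for 3.81% of genes there. Its log2 fold change was 1.25 ± 0.29 (SE), with an adjusted p of 0.53 in edgeR's quasi-likelihood test and 0.064 in DESeq2. With free RNA subtracted it was 3.18, but the subtraction stops at 0. It left control mice 1, 2 and 4 and ancrod mouse 3 at 0, so the groups then overlapped. The endothelial sums held 47.5 to 63.3 CPM of the 11 fibroblast markers in control and 36.1 to 286 CPM in ancrod mice, whose part in this difference was not tested. Sdc2 and Sdc4 in endothelial cells had log2 fold changes of 0.92 ± 0.28 and 0.68 ± 0.27 (SE), and the groups did not overlap for Sdc2. With free RNA subtracted these were 1.39 and 1.06, and with classes named by a marker score Sdc2 was at 0.56. Markers of astrocytes, which have both syndecan genes, and of pericytes, which have much Sdc2 but little Sdc4, were higher by mean in the same sums. They were at 113 to 215 CPM in control and 202 to 305 CPM in ancrod mice for astrocytes and at 256 to 418 and 343 to 461 CPM for pericytes. The median endothelial cell held 7139 to 9759 UMIs in control and 11573.5 to 17493 in ancrod mice, without overlap. The part of these markers and of the depth in the differences was not tested.

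In immune classes Ptn had the higher means in ancrod mice, and none passed. Its log2 fold change was 1.39 ± 0.34 in macrophages derived from monocytes, 1.26 ± 0.36 in border-associated macrophages, 1.22 ± 0.46 in neutrophils and 0.82 ± 0.33 in microglia (SE). The neutrophil value was 1.99 under a stricter minimum of UMIs per cell. In the first of these Ptn was 10.7, 8.49, 3.09 and 4.31 CPM in control mice 1 to 4 and 11.7, 16.5, 18.3 and 20.7 CPM in ancrod mice 1 to 4. These did not overlap, as for 1.75% of genes there, and neither did Ptn in neutrophils, as for 2.48% there.

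Markers of astrocytes, which have much Ptn, were higher by mean in the same sums. In macrophages derived from monocytes they were at 21.4 to 73.8 CPM in control and 60.7 to 169 CPM in ancrod mice, and in neutrophils at 54.1 to 243 CPM and 161 to 1081 CPM. The part of the astrocyte and pericyte markers in the Ptn differences was not tested. With free RNA subtracted Ptn no longer passed the filter on low counts in these 4 classes. Mdk had log2 fold changes of 0.64 ± 0.35 in border-associated macrophages, without overlap, as for 2.96% of genes there, and 0.27 ± 0.11 in microglia (SE). The first was 0.40 without control mouse 2, and the second was 0.56 after thinning and turned to -0.19 with free RNA subtracted. Fibroblast markers in the border-associated macrophages were at 6.30 to 23.3 CPM in control and 15.7 to 61.7 CPM in ancrod mice, and their part was not tested. Ptprz1 had a log2 fold change of 1.45 ± 0.57 in macrophages derived from monocytes (SE), and 0.88 without ancrod mouse 2, which had 9.15 CPM. With free RNA subtracted, neither Ptprz1 in this class nor Mdk in border-associated macrophages gave a fold change.

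**Figure D5:**
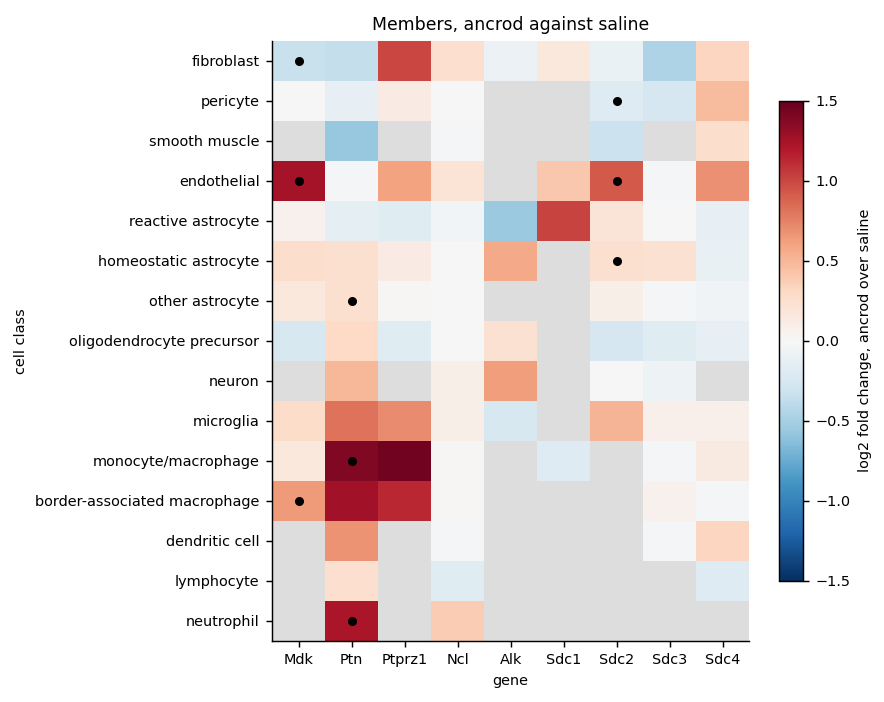
Log2 fold change of ancrod over saline (edgeR) of the 9 genes in 15 classes, with colour for sign and size, grey where the gene was not tested and a black dot where the values of the groups did not overlap. Outside fibroblasts 0 of the 86 tests passed an adjusted p of 0.05.

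The wider pathway was followed in 7 lists of 74 genes: other midkine and pleiotrophin receptors, enzymes that build and edit heparan sulfate, cytoplasmic partners of syndecans, syndecan sheddases with their inhibitor, syndecan ligands, other partners of Ptprz1 and Alk, and genes of retinoic acid, of which Mdk is a known target. In 621 tests outside fibroblasts, 0 list genes rose and 0 fell at an adjusted p of 0.05 in edgeR's quasi-likelihood test, 63 had an unadjusted p under 0.05 (5.06% over all genes) and the lowest adjusted p was 0.14, for Fn1 in pericytes. DESeq2 called 1 list gene outside fibroblasts, Ncam1 in macrophages derived from monocytes.

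In fibroblasts the median log2 fold changes of the lists lay between -0.13 (11 of 12 retinoic acid genes tested) and 0.19 (2 of 6 partners of Ptprz1 and Alk tested), against -0.0031 over all genes tested there. The highest list genes there by level included the fibronectin gene Fn1 at 2608 ± 157 CPM and the glypican gene Gpc6 at 1188 ± 159 CPM (SD, n = 8 each). Apoe had 943 ± 173 CPM, the membrane protease gene Mmp14 708 ± 135 CPM, the heparan sulfate polymerase gene Ext1 539 ± 95.5 CPM and the integrin gene Itgb1 490.1 ± 43.6 CPM (SD, n = 8 each).

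The sulfatase gene Sulf1 had 314 ± 41.0 CPM in fibroblasts, Adamts1 310.2 ± 59.9 CPM and Sdcbp, which encodes the syndecan adaptor syntenin, 223 ± 18.5 CPM (SD, n = 8 each). Cask had 162 ± 23.9 CPM, the retinoic acid receptor gene Rarb 149 ± 32.3 CPM, Ncam1 98.8 ± 23.3 CPM and Nrcam 1.52 ± 0.950 CPM (SD, n = 8 each). The log2 fold changes of these genes in fibroblasts ran from -0.37 ± 0.17 for Rarb to 0.27 ± 0.53 for Nrcam (SE).

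Reactive astrocytes differed from fibroblasts in which list genes stood highest. Apoe had 9655 ± 1745 CPM, the chondroitin sulfate proteoglycan gene Cspg5 938 ± 113 CPM and the linker gene Ezr 592 ± 48.7 CPM (SD, n = 8 each). Nrcam and Ncam1 had 589 ± 76.5 and 445 ± 25.3 CPM, Aldh1a1 344 ± 60.1 CPM and the metalloprotease inhibitor gene Timp3 303 ± 95.4 CPM (SD, n = 8 each).

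Sdcbp had 279 ± 13.6 CPM in reactive astrocytes, Itgav 262 ± 30.9 CPM and the growth factor gene Hbegf 256 ± 49.1 CPM (SD, n = 8 each). Ext1 had 180.1 ± 59.5 CPM, Hs2st1 162 ± 21.2 CPM and Adamts1 140.0 ± 35.2 CPM (SD, n = 8 each). Their log2 fold changes ran from -0.24 ± 0.10 for Hs2st1 to 0.28 ± 0.14 for Hbegf (SE), and none passed.

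A ligand-receptor score (LRscore) described which classes could pair. It divides the square root of the product of the mean log levels of ligand and receptor by the same root plus the mean of the library, and so lies between 0 and 1. Of 7 source classes scored, fibroblasts were the top source of Mdk with each of the 7 receptors and pericytes the top source of Ptn with each. For a given receptor and receiver the score rises only with the ligand level of the source, so this order repeats the ligand levels.

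For fibroblast Mdk the top receivers were homeostatic astrocytes through Ptprz1 (0.941 ± 0.0022), pericytes through Sdc2 (0.926 ± 0.0040) and Sdc3 (0.910 ± 0.0048), reactive astrocytes through Sdc4 (0.925 ± 0.0044) and lymphocytes through Ncl (0.920 ± 0.0033, SD, n = 8 each). Through Sdc1 fibroblasts paired best with themselves (0.833 ± 0.010, SD, n = 8), and through Alk with oligodendrocyte precursors (0.841 ± 0.029, SD, n = 7). For pericyte Ptn the highest score was with homeostatic astrocytes through Ptprz1 (0.958 ± 0.00098, SD, n = 8). The score of fibroblast Mdk with Ptprz1 of homeostatic astrocytes was 0.942 in control and 0.940 in ancrod mice, with overlap, beside the 20.6% difference in Mdk itself. With pericytes it was 0.929 and 0.924 through Sdc2 and 0.914 and 0.906 through Sdc3, and with lymphocytes 0.922 and 0.917 through Ncl, without overlap. With oligodendrocyte precursors through Alk it was higher in ancrod mice, at 0.837 in control and 0.846 in ancrod mice, with overlap. Of 735 pairs of source, receiver and receptor each, 211 of Mdk and 300 of Ptn had a lower mean score in ancrod mice. Most pairs of either ligand did not. The groups did not overlap in 86 of the 735 pairs of Mdk and 20 of the 735 pairs of Ptn. No share over pairs of other genes stands beside these counts, so they are not a result about either ligand. The pairs reuse the sums of the same few genes and are not independent, and those with fibroblasts as source of Mdk hold the values by which the genes were chosen. The score reads transcripts and does not measure binding.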

How the data were processed

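The authors processed the reads with Cell Ranger 7.1.0, which uses STAR, and GRCm39, per the submitters' processing notes. The deposited counts are UMI counts per gene and droplet without normalization, with separate lists of genes and barcodes.

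Droplets with at least 2000 UMIs and under 20% mitochondrial UMIs were kept. Doublets were scored with a Scrublet procedure and the highest scores removed, 0.8% per 1000 cells per library. Cells were clustered on 3000 variable genes without mitochondrial, member and list genes (20 principal components, 20 neighbours, Leiden resolution 2, leidenalg 0.10.2) and named from marker lists. The rule that set the other astrocytes apart was made after the clusters had been seen. Between 5.41% and 11.4% of cells per mouse stayed unnamed.

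UMIs were summed per mouse and class where a mouse had at least 10 cells and tested with edgeR 4.0.16 (filterByExpr, TMM, quasi-likelihood test, Benjamini-Hochberg adjustment over all genes of the class) in the 15 classes with at least 3 mice per group. The mouse was the replicate, and the labels call the mice biological replicates. The filter left 40 pairs of a member and a class untested. DESeq2 1.42.0 was an alternative. The edgeR step was tested on simulated data.

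The members and lists were chosen with earlier results of these data known. Members were described in every class. Fold changes were named in fibroblasts for all members and elsewhere where the unadjusted p was under 0.05 or the groups did not overlap. List genes were named as the 2 highest of each list in fibroblasts and reactive astrocytes, and genes most like a member as the 5 highest correlations. Other tests, normalization, filters, covariates, cell filters, thinning, subtraction of free RNA, cluster names and the omission of each mouse were tried as alternatives. A few genes that these rules name are not reported here. No sequence was used here.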

Additional observations from a re-analysis of the deposited data

Results flagged for a closer look

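In a check of 83 groups of 4 mice for a mouse far from the rest, 3 were flagged, and chance flags about 5% of groups. Alk in homeostatic astrocytes was 37.5 CPM in control mouse 3, against 9.16 to 12.54 CPM in the other control mice. Ptn in fibroblasts was 2763 CPM in control mouse 1, against 2243 to 2293 CPM in the other control mice. Ptn in neutrophils was 124 CPM in ancrod mouse 3, against 44.7 to 56.2 CPM in the other ancrod mice.

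In 4 pairs of classes every ancrod mouse lay on one side of the control mice in 1 class and on the other side in the other. Mdk had a log2 fold change higher by 0.97 in border-associated macrophages and by 1.58 in endothelial cells than in fibroblasts. The fibroblast side of both is the value by which the genes were chosen, and on the other side Mdk was near absent, in sums where fibroblast markers were higher by mean in ancrod mice. Sdc2 had a log2 fold change higher by 1.11 in endothelial cells and by 0.44 in homeostatic astrocytes than in pericytes. These differences between classes were not tested.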

How the results depend on the processing

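The log2 fold change of Mdk in fibroblasts was between -0.39 and -0.26 over all alternatives. Its sign follows from the value by which the genes were chosen, so this range is a description. With equal cluster mixes or without 4 subclusters the values of the groups met or overlapped, as given above. No alternative called a member outside fibroblasts. The counts of all genes called moved, and the causes were not tested. DESeq2 called 196 in fibroblasts, 69 in pericytes, 15 in reactive astrocytes, 13 in endothelial cells, 11 in oligodendrocyte precursors, 9 in dendritic cells, 7 in macrophages derived from monocytes, 5 in border-associated macrophages, 3 in microglia and 2 each in homeostatic astrocytes and lymphocytes. Without the filter on low counts there were 110 in neutrophils, 103 in pericytes, 21 in other astrocytes, 19 in smooth muscle, 7 in dendritic cells, 3 in border-associated macrophages and 2 in lymphocytes. In batch 1 alone there were 14 in homeostatic astrocytes, 13 in pericytes and 5 in reactive astrocytes, and with batch as a term 3 in fibroblasts, 6 in pericytes and 0 in homeostatic astrocytes. Without doublet removal there were 30 in pericytes and 0 in both homeostatic and reactive astrocytes. After thinning there were 6 in dendritic cells, 2 in fibroblasts, 2 in reactive astrocytes, 1 in pericytes and 0 in homeostatic astrocytes, and that last count was also 0 with free RNA subtracted or with cells under 10% mitochondrial UMIs.

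Leaving out 1 mouse at a time gave 0 to 22 in pericytes (22 without ancrod mouse 4), 1 to 8 in reactive astrocytes (8 without control mouse 4), 0 to 2 in homeostatic astrocytes (2 without ancrod mouse 3 or 4, 0 without any other mouse), 1 to 2 in fibroblasts (2 without ancrod mouse 4), 0 to 3 in dendritic cells (3 without control mouse 2), oligodendrocyte precursors (3 without control mouse 3) and smooth muscle (3 without ancrod mouse 1), and 0 to 1 in border-associated macrophages (1 without control mouse 3), lymphocytes (1 without ancrod mouse 1) and macrophages derived from monocytes (1 without control mouse 3 or ancrod mouse 4).

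List genes called outside fibroblasts numbered 1 with DESeq2 (Ncam1), 6 without the filter, 1 without doublet removal and 0 to 1 with a mouse left out. The gene was Fn1 in pericytes both without doublet removal and without ancrod mouse 4. The log2 fold change of Mdk in microglia turned to -0.19 with free RNA subtracted.

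The replicate block called 28 genes in pericytes, 1 in endothelial cells, 0 in homeostatic and reactive astrocytes and 1 list gene, Fn1 in pericytes, and it gave Mdk in fibroblasts a log2 fold change of -0.34. By a cut of 0.1 the replicate numbers did not pair the mice throughout any class, since in none was every pair's correlation over it. In oligodendrocyte precursors, though, each of the 3 pairs correlated best with its own number (r of 0.05 to 0.40). The mice of replicate 4, which formed a batch of their own, were a partial exception. In most classes, such as fibroblasts and macrophages derived from monocytes, their correlation was above the best with another replicate number. In others, such as microglia and homeostatic astrocytes, it was below. The part of batch in this was not tested. Neurons could not be compared under a stricter minimum of UMIs per cell or with under 10% mitochondrial UMIs.

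Classes of few cells, such as oligodendrocyte precursors, and genes of few UMIs, such as Alk, limit the precision, and the groups differed in depth.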
